A study of Mus musculus with 12 samples.

Results

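The inflammasome components described here are 10 genes carried by 13 probes, of 17596 genes tested on mouse expression arrays: the sensors Nlrp3, Nlrc4 and Aim2, the adaptor Pycard, the caspases Casp1 and Casp4, the effectors Gsdmd and Il18, the regulator Txnip and the channel Panx1. They were chosen by gene name and role, by a rule that uses no measured value, though with earlier results of these data known. The cells were RAW264.7, an established mouse macrophage line, and FABP4 (aP2) carries fatty acids in adipocytes and macrophages, from which it is also released. The 4 groups were RAW264.7 cells given palmitic acid at 0.2 mM together with recombinant FABP4 at 200 nM, cells given palmitic acid alone, cells given FABP4 alone, and control cells given neither, with 3 arrays each. Every group was incubated for 24 h in medium with 0.5% fatty acid-free BSA, so the controls carried the BSA too. The line is a single cell line in culture, and the FABP4 of the treatment was added to the medium. Expression of the cells' own Fabp4 gene is not reported here. Nothing in the labels says whether the 3 arrays of a group stem from separate cultures, and the p-values therefore reflect array-to-array spread that may be technical.

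An inflammasome is a cytosolic complex in which a sensor such as NLRP3, NLRC4 or AIM2 recruits caspase-1, in most cases through the adaptor ASC, the product of Pycard. Active caspase-1 matures interleukin-1 beta and interleukin-18 and cuts gasdermin D, whose fragment makes pores in the plasma membrane, and caspase-4 (caspase-11 in older mouse usage) cuts gasdermin D after sensing cytosolic lipopolysaccharide. Saturated fatty acids such as palmitic acid are known to activate NLRP3 in primed macrophages, and priming raises Nlrp3 and Il1b transcripts through NF-kB. RAW264.7 cells are widely described as lacking ASC protein. The arrays measured RNA, not assembly of the complex.

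The probes on which the results turn are shown because each value below is the signal of 1 such stretch of a transcript. Their sequences are those of the deposited scanner files, and positions are in mm9, the build named in the file headers. The Pycard probe (chr7:135136241-135136300, minus strand), the second Nlrp3 probe (chr11:59378554-59378613, plus strand) and the second Txnip probe (chr3:96364206-96364265, plus strand) are printed whole. The first 30 bases are printed of the Panx1 probe (chr9:14810250-14810309, minus strand), of the first Nlrp3 probe (chr11:59379981-59380040, plus strand) and of the first Txnip probe (chr3:96365147-96365206, plus strand). Whether these stretches are exonic, coding or untranslated was not analysed here, since no annotation of this build was used.
Panx1, first 30 bases: aggacctggggcttctagagagcaagcaca
Pycard: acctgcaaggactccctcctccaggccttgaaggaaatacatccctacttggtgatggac
Nlrp3 first probe, first 30 bases: atatcctcagtgggcaaggtgttccctctt
Nlrp3 second probe: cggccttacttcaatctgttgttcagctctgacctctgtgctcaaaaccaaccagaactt
Txnip first probe, first 30 bases: ctaaggtgatgttcttagcactttagcttg
Txnip second probe: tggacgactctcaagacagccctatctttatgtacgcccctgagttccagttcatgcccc

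Values are given as scaled intensity, the background-subtracted signal divided by the 75th percentile of its own array and multiplied by 274.1, the mean of these percentiles over the arrays. A level of 1 probe says nothing against the level of another, so levels are compared only between groups for the same probe. Each array held 59305 non-control spots, of which 42.8% to 46.7% were well above background. All 13 probes of the members were well above background on all 12 arrays and 0 were saturated, so every member passed the filter on dim probes and no value is a bound. The 3 control arrays and array 1 of FABP4 were on slide 1, and the other 8 arrays on slide 2. Palmitic acid and control arrays therefore never shared a slide, and FABP4 alone is the group that spans both. A fit with slide as a fixed block thus takes the slide difference only from FABP4 array 1 against the other FABP4 arrays. For palmitic acid added to FABP4, such a fit has the same estimate as slide 2 alone. For FABP4 alone, it sets FABP4 array 1 against the control arrays. Of the macrophage markers, 7 of 8 were well above background on all arrays (Csf1r and Cd68 among them, Mertk on none), while of 4 adipocyte markers none was on any array. Well above background on all arrays were also 2 of 5 neutrophil (Elane and Camp), 2 of 4 T cell (Cd3e and Cd4) and 1 of 5 fibroblast markers (Col1a2). Ly6g, Ngp, Cd3g, Cd8a, Col1a1 and Pdgfra were so on none. In lysates of whole cultures, fewer cells expressing a gene and less RNA per cell cannot be told apart.

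Calls were few among the 10 genes, as they were among all genes. Tests were run in limma, with Benjamini-Hochberg adjustment over all genes and a call at an adjusted p under 0.05. Palmitic acid without FABP4 against control had 1 of 10 members called higher, Pycard, against 8.61% of all genes called in either direction. Palmitic acid with FABP4 present raised 1, Panx1, against 3.81% of all genes. Palmitic acid and FABP4 together against control also had 1 called higher, again Panx1, against 7.52%. In this comparison and that of palmitic acid alone the groups shared no slide. With slide as a fixed block neither call held (adjusted p = 0.792 for Pycard and 0.0559 for Panx1). FABP4 without palmitic acid called 0 members in limma (0.017% of all genes), with 1 member, Aim2, at an unadjusted p under 0.05 beside 1273 genes of all those tested. FABP4 with palmitic acid present called 0 members (0% of all genes), with Panx1 the 1 member at an unadjusted p under 0.05 beside 1034 genes. The interaction, the effect of palmitic acid with FABP4 minus that without it, called 0 members (0% of all genes), with 2 members, Aim2 and Panx1, at an unadjusted p under 0.05 beside 1218 genes. These comparisons share arrays with each other, controls included, so their calls are not independent.

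**Figure D1:**
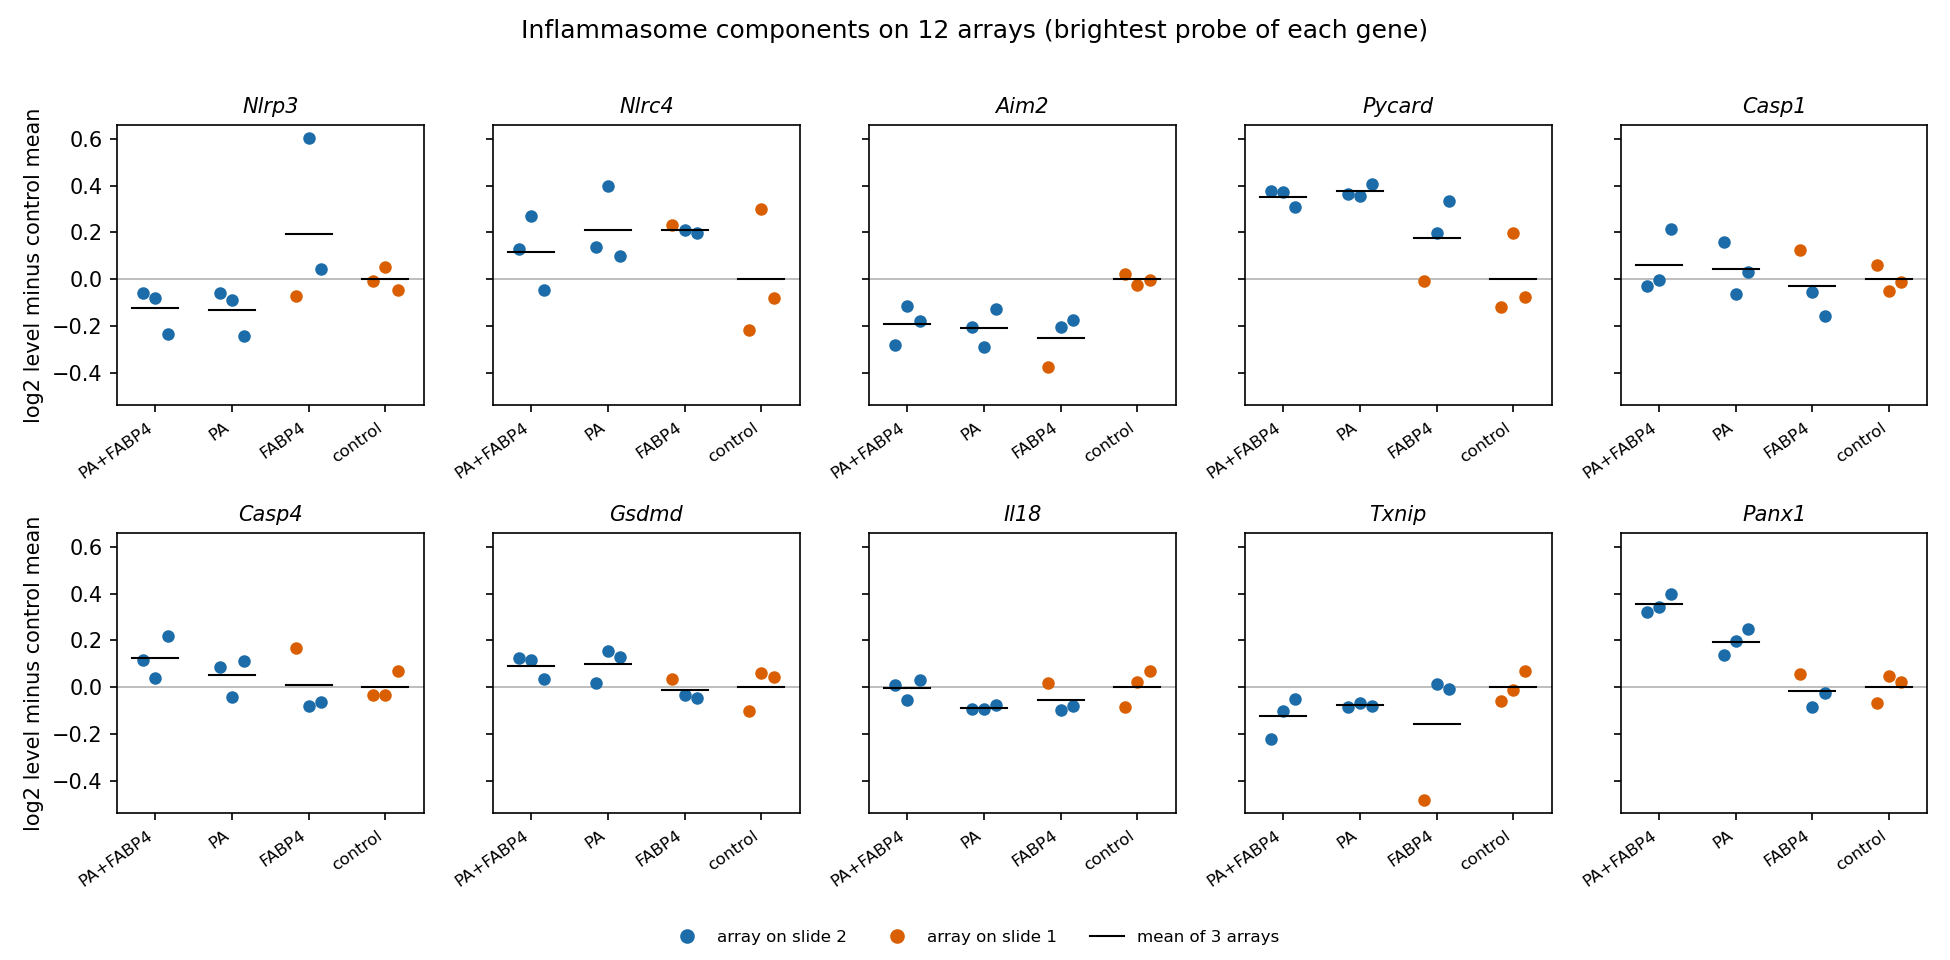
Level of each member on each array as log2 difference from its control mean (vertical axis, log2 units, first probe of each gene), by group from palmitic acid with FABP4 (PA+FABP4) on the left to control on the right. Points are arrays, orange on slide 1 and blue on slide 2, and bars are means of 3 arrays. Panx1 and Pycard have their palmitic acid arrays above all control arrays, Aim2 has its control arrays above all others, and single arrays stand apart for Nlrp3 and Txnip in the FABP4 group.

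Over the members, the median log2 fold change was 0.05 for palmitic acid without FABP4, where the median of all genes was 0.00054. It was 0.07 against 0.05 for palmitic acid with FABP4 present, and 0.08 against 0.04 for both agents together. For FABP4 the members' median was -0.02 without palmitic acid, against -0.01 for all genes, and 0.01 with it, against 0.03. The members' values ranged from -0.21 to 0.38 for palmitic acid alone and from -0.32 to 0.37 for palmitic acid with FABP4 present. Groups did not overlap for 5 of 10 members with palmitic acid alone against control, where 33.9% of all genes showed the same. This held for 2 of 10 with palmitic acid added to FABP4 (26.3% of all genes) and 4 of 10 with both agents against control (37.4%). It held for 1 with FABP4 alone (10.4%) and 2 with FABP4 added to palmitic acid (14.5%). Over 10 members these counts are a description and are read against the shares of all genes.

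**Figure D2:**
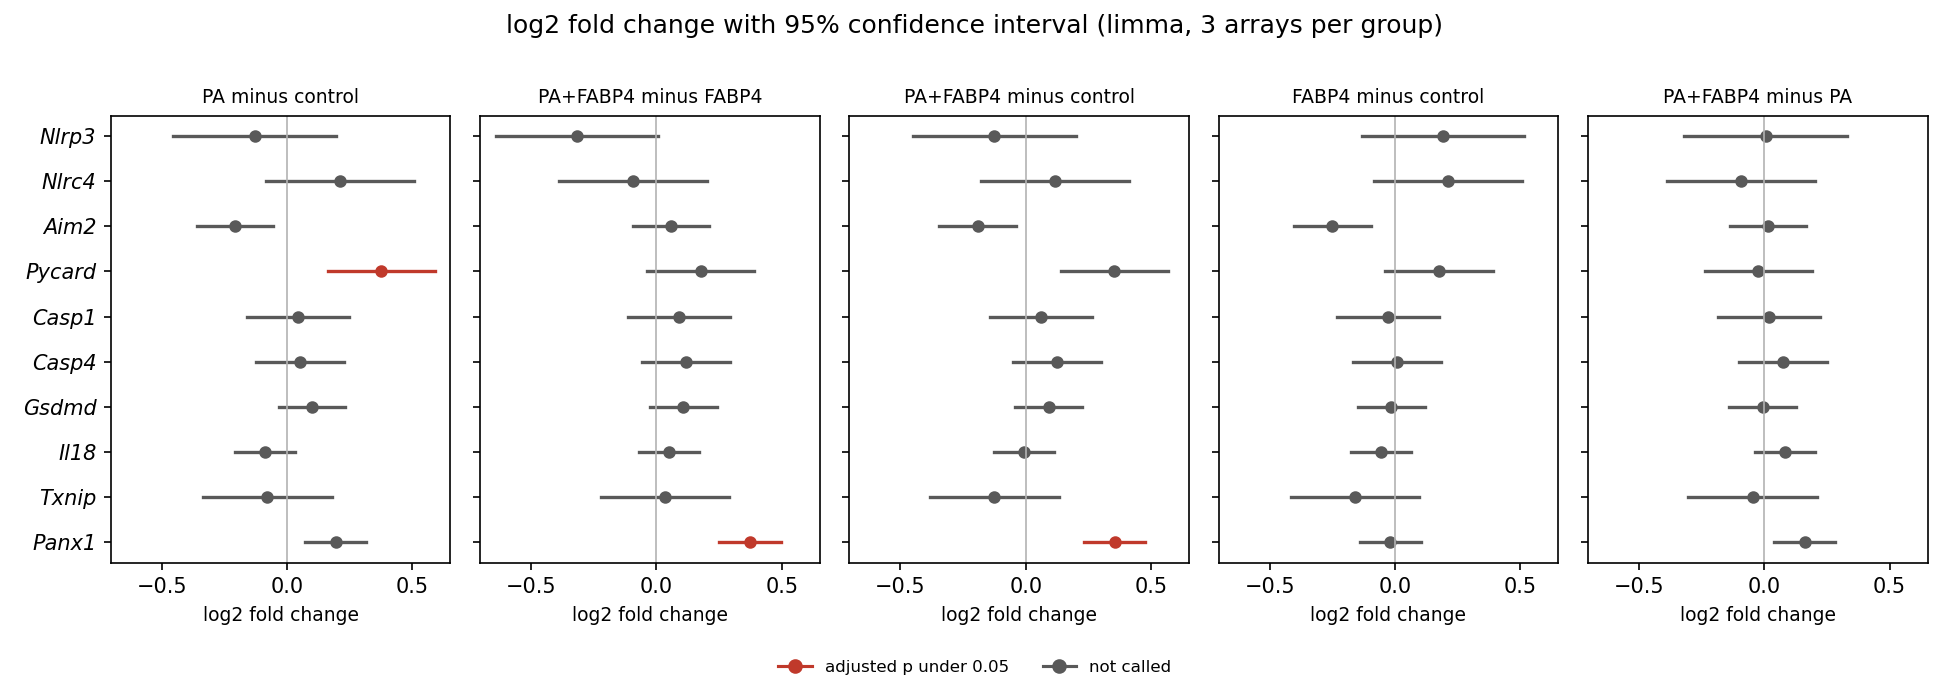
log2 fold change (horizontal axis) of each member in 5 comparisons, with 95% confidence intervals from the limma fit to 12 arrays, red where the adjusted p was under 0.05. Pycard with palmitic acid alone (0.38) and Panx1 with palmitic acid added to FABP4 (0.37) and with both against control (0.35) are called, and 9 of 10 members are not called in each of these panels.

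Of the sensors, Nlrp3, the best studied sensor of cell damage and the one linked to saturated fatty acids, was not called in any comparison. Its first probe gave 274, 270.3 and 243 units with palmitic acid and FABP4, 274, 269 and 241 units with palmitic acid, 272, 434 and 295 units with FABP4, and 285, 296 and 277 units in control cells. FABP4 array 2 alone stood far above the rest, while the 6 palmitic acid arrays lay just below the 3 control arrays. The fold changes of this probe were -0.13 ± 0.15 for palmitic acid alone (log2, SE, n = 3 each, limma adjusted p = 0.608, or -0.53 ± 0.23 with slide as a fixed block, adjusted p = 0.317) and -0.32 ± 0.15 with FABP4 present (adjusted p = 0.249, or -0.45 ± 0.14 with the block, adjusted p = 0.126). The slide difference in the block rests on the FABP4 group, which holds the high array. Without FABP4 array 2 the second of these was -0.11, at an adjusted p of 0.474.

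The second Nlrp3 probe, 1 of those printed whole above, did not show the high array. It gave 146, 158 and 156 units with palmitic acid and FABP4, 149, 158 and 163 units with palmitic acid, 186, 176 and 161 units with FABP4, and 162, 192 and 196 units in control cells. The groups with palmitic acid lay at the low end, with palmitic acid array 3 just above control array 1. The difference was -0.22 ± 0.08 for palmitic acid alone (log2, SE, n = 3 each, limma adjusted p = 0.131 over all probes) and -0.25 ± 0.08 with both agents (adjusted p = 0.103), neither past the threshold. On FABP4 array 2 the deviations of the probes from their own means differed by 0.54 log2 units, and on the array with the next largest gap by 0.27. Which probe reports the transcript better was not tested.

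Nlrc4, which with NAIP proteins responds to bacterial flagellin and secretion systems, was not called in any comparison. It gave 73.8, 81.5 and 65.4 units with palmitic acid and FABP4, 74.2, 88.9 and 72.3 units with palmitic acid, 79.2, 78 and 77.4 units with FABP4, and 58.1, 83 and 63.8 units in control cells. All groups overlapped, and the FABP4 values lay inside the control range. The log2 fold change of palmitic acid alone was 0.21, with a 95% interval of -0.08 to 0.51 and an adjusted p of 0.342 in limma.

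Aim2, a sensor of cytosolic double-stranded DNA, was highest in control cells. It gave 681, 766 and 730.2 units with palmitic acid and FABP4, 718, 677 and 758 units with palmitic acid, 639, 719 and 734 units with FABP4, and 842, 815 and 827 units in control cells. All 3 control arrays lay above all 9 treated arrays, which overlapped each other. The log2 difference from control was -0.25 ± 0.07 with FABP4 (SE, n = 3 each, limma unadjusted p = 0.00445, adjusted p = 0.479), -0.21 ± 0.07 with palmitic acid (adjusted p = 0.0881) and -0.19 ± 0.07 with both (adjusted p = 0.12). The palmitic acid difference passed the threshold when FABP4 array 1 was left out (adjusted p = 0.0408). FABP4 array 1, the treated array on slide 1, was the lowest of all 12 at 639 units, so within slide 1 the treated array also lay below the controls. With slide as a fixed block the FABP4 difference was -0.37, which is this 1 array against the 3 control arrays and no separate support. The interaction was 0.27 ± 0.10 (log2, SE, limma adjusted p = 0.695).

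Pycard, which encodes the adaptor ASC that links sensors to caspase-1, was called higher with palmitic acid alone than in control cells. It gave 569, 568 and 544 units with palmitic acid and FABP4, 565, 561 and 581 units with palmitic acid, 437, 503 and 553 units with FABP4, and 404, 503 and 416 units in control cells. The palmitic acid arrays lay above all control arrays with or without FABP4, and the FABP4 arrays lay between and overlapped the control arrays and those with both agents. The fold change of palmitic acid alone was 0.38 ± 0.10 on the log2 scale, or 1.30-fold (SE, n = 3 each, limma adjusted p = 0.0399). With both agents against control it was 0.35 ± 0.10 (adjusted p = 0.054, and 0.0224 to 0.173 in fits without 1 array, 3 of 12 of them past the threshold, those without control array 2, FABP4 array 1 or FABP4 array 3), and with palmitic acid added to FABP4 0.18 ± 0.10 (adjusted p = 0.321).

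The values of Pycard split by slide as well as by treatment. The 4 arrays on slide 1 lay between 404 and 503 units (502.7 at most), and the 8 on slide 2 between 503.4 and 581 units. With slide as a fixed block the palmitic acid difference was 0.10 ± 0.14 (log2, SE, adjusted p = 0.792), and with slide as a random block 0.26 ± 0.12 (adjusted p = 0.414). On slide 2 alone, palmitic acid with FABP4 against the 2 FABP4 arrays there gave 0.09, with an adjusted p of 0.466. The call held in 3 of the 12 fits that left out 1 array (control array 2, FABP4 array 1 or FABP4 array 3) and ended when any of the other 9 was left out, with adjusted p-values of 0.0164 to 0.131 over all 12 fits. For this gene treatment and slide cannot be told apart. The tested genes whose pattern over the 12 arrays was most like that of Pycard were Prp2 and Crabp2, with root mean square differences of 0.04 and 0.05 log2 units, followed by a transcript that the array names only by its region.

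**Figure D3:**
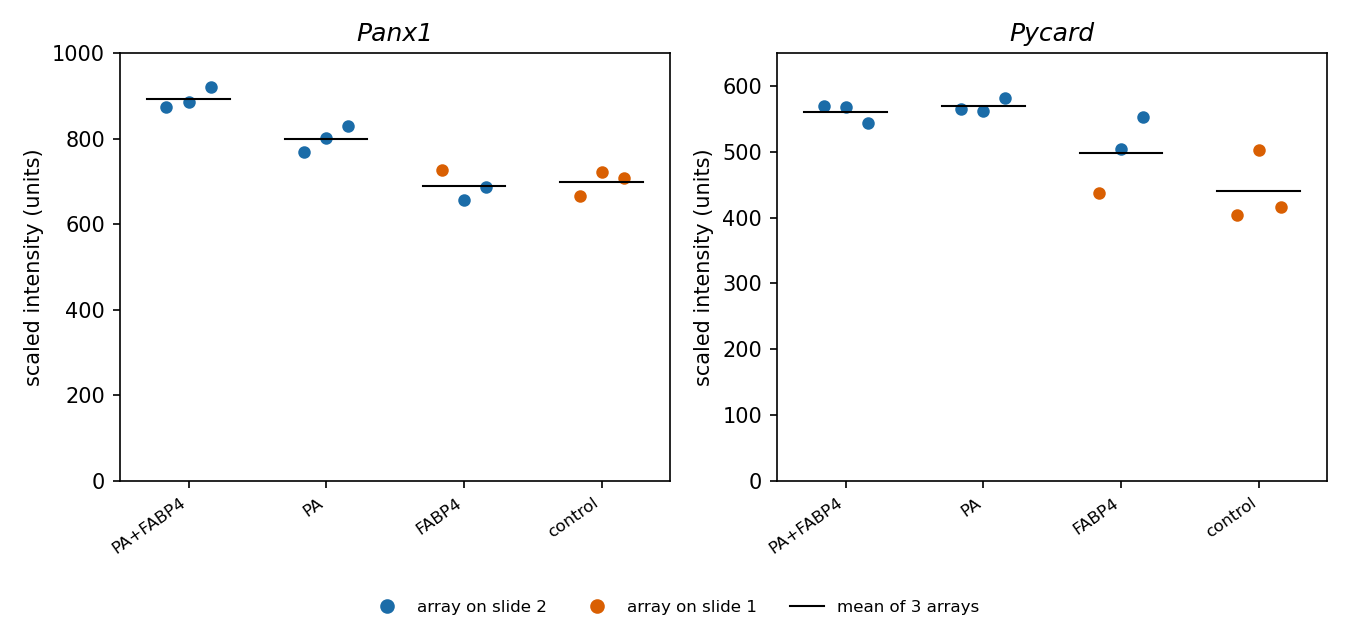
Scaled intensity (vertical axis, units, from 0) of Panx1 and Pycard on each array, by group, with orange points on slide 1, blue points on slide 2 and bars at the means of 3 arrays. On slide 2 the Panx1 arrays with palmitic acid read 768 to 920.5 units, against 657 and 687 units with FABP4 alone, and the Pycard values of slide 1 all lie below those of slide 2.

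The caspases did not pass the test in any comparison. Casp1, the protease that matures interleukin-1 beta and interleukin-18, averaged 23886 ± 2260.2 units with palmitic acid and FABP4, 23566 ± 1812 with palmitic acid, 22462 ± 2241 with FABP4 and 22839 ± 906 in control cells (SD, n = 3 each). All groups overlapped, and the 95% interval of the log2 change with palmitic acid alone ran from -0.16 to 0.25. With slide as a fixed block this change was 0.27, with an interval of -0.05 to 0.60 (limma adjusted p = 0.423). Casp4, the receptor of cytosolic lipopolysaccharide, averaged 36979 ± 2338 units with palmitic acid and FABP4, 35135 ± 1975 with palmitic acid, 34150.4 ± 3346 with FABP4 and 33902 ± 1448 in control cells (SD, n = 3 each, first probe). Its change with both agents was 0.12 log2 units, with an interval of -0.05 to 0.30 (limma adjusted p = 0.358). With slide as a fixed block it was 0.36, with an interval of 0.11 to 0.62 (adjusted p = 0.156). For both caspases the slide difference in the block rests on FABP4 array 1 against the other FABP4 arrays. These read 38010 units against 32070 and 32371 for Casp4, and 24904 against 21982.5 and 20499 for Casp1. The second Casp4 probe overlaps the first along most of its length, and the deviations of the pair differed by at most 0.08 log2 units on any array. The second probe lay between 25173 and 31808 units over all arrays and was not called either.

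The effectors did not pass the test in any comparison. Gsdmd, the pore former of pyroptosis, gave 11022, 10986 and 10384 units with palmitic acid and FABP4, 10237, 11264 and 11056 units with palmitic acid, 10381, 9884 and 9815 units with FABP4, and 9425, 10569 and 10421 units in control cells. With palmitic acid added to FABP4 the groups just failed to overlap, and the difference was 0.11 ± 0.06 (log2, SE, n = 3 each, limma adjusted p = 0.334). Gsdmd was the member with the most spots, 10 per array. The SD among single spots of 1 array was 0.033 to 0.061 log2 units. The SD over the 12 arrays of all groups, each array being the mean of its 10 spots, was 0.078. These SDs are of different kinds and are not compared.

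Il18, the cytokine released after caspase-1 cleavage, gave 7237, 6927 and 7336 units with palmitic acid and FABP4, 6739.7, 6745 and 6819 units with palmitic acid, 7281, 6716 and 6792 units with FABP4, and 6771, 7295 and 7536 units in control cells. The palmitic acid arrays were close to each other and below the 3 arrays with both agents. The difference of these groups was 0.08 ± 0.05 (log2, SE, n = 3 each, limma adjusted p = 0.824). Against control the palmitic acid difference was -0.09, with a 95% interval of -0.21 to 0.03.

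Txnip, a thioredoxin-binding alpha-arrestin reported to bind NLRP3 under oxidative stress, was not called without a slide term, nor with slide as a random block. Its first probe gave 3185, 3468 and 3593 units with palmitic acid and FABP4, 3503, 3545 and 3519 units with palmitic acid, 2658, 3756 and 3700.3 units with FABP4, and 3570.2, 3689 and 3906 units in control cells. FABP4 array 1 was far below the other 11 arrays. The second probe did not show this: FABP4 array 1 read 609.7 units there, within the range of 513 to 655 units over all arrays. The deviations of the pair on that array differed by 0.46 log2 units, and by 0.17 on the array with the next largest gap.

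That array is the one treated array on slide 1, and in fits with slide as a fixed block the slide difference is estimated from the FABP4 group, which alone spans both slides. The FABP4 difference in such fits is therefore FABP4 array 1 against the control arrays. In those fits the first Txnip probe was called lower with palmitic acid (-0.57 ± 0.10, log2, SE, limma adjusted p = 0.0383), with FABP4 (-0.48 ± 0.08, adjusted p = 0.0321, but 0.29 in a fit to the 4 arrays of slide 1 alone) and with both (-0.61 ± 0.10, adjusted p = 0.0289). Without the slide term the corresponding values were -0.08 (adjusted p = 0.707), -0.16 (adjusted p = 0.83) and -0.12 (adjusted p = 0.536). With slide as a random block they were -0.28 ± 0.13 (adjusted p = 0.417), -0.29 ± 0.11 (adjusted p = 0.865) and -0.33 ± 0.13 (adjusted p = 0.31). The second probe was not fitted with the slide term. On slide 1 its FABP4 array 1 read 609.7 units, inside the range of 559 to 614 units of the control arrays. Without the slide term this probe gave 0.01 for palmitic acid alone, 0.08 for FABP4 alone and -0.10 for both (adjusted p-values 0.944, 0.836 and 0.364). With palmitic acid added to FABP4 it gave -0.18 ± 0.06 (adjusted p = 0.157), and the first probe 0.03 ± 0.12 (adjusted p = 0.892).

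**Figure D4:**
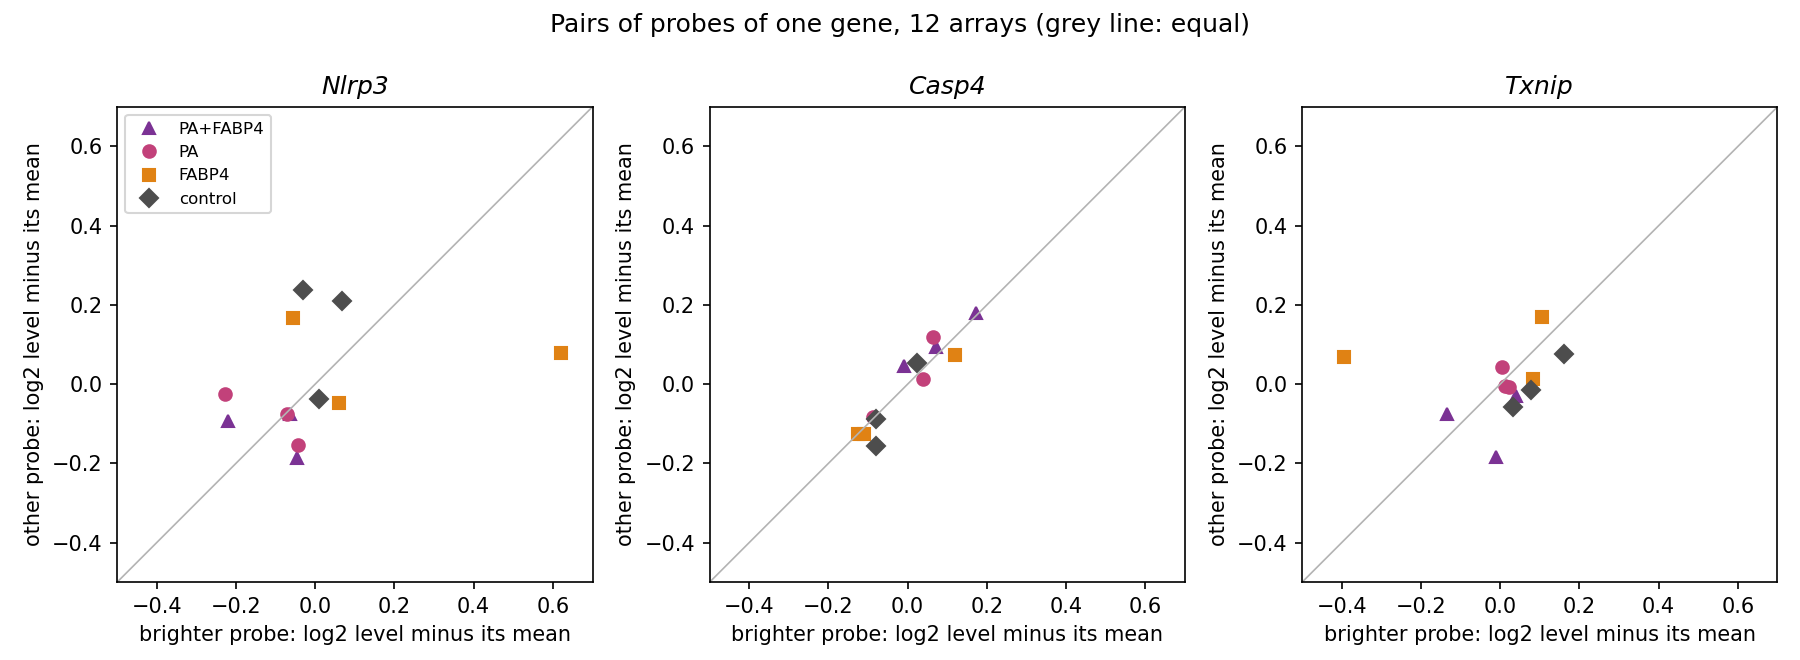
Deviation of the first probe (horizontal axis, labelled brighter probe) and of the second probe (vertical axis) from their own means over 12 arrays, in log2 units, for the 3 members with a pair of probes, with 1 point per array, coloured by group. Casp4 points follow the grey line of equality, whereas 1 FABP4 array of Nlrp3 (gap 0.54) and 1 FABP4 array of Txnip (gap 0.46) lie far from it.

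Panx1, which encodes the membrane channel pannexin-1 that releases ATP and is opened by caspase cleavage, was called in 2 comparisons. It gave 874, 885 and 920.5 units with palmitic acid and FABP4, 768, 800.4 and 829 units with palmitic acid, 726, 657 and 687 units with FABP4, and 666, 721 and 709 units in control cells. Every array with both agents lay above every array with palmitic acid alone, and those lay above all FABP4 and control arrays, which overlapped. The means were 893 ± 24.5, 799 ± 30.9, 689.9 ± 34.3 and 699 ± 29.2 units in the same order of groups (SD, n = 3 each).

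With FABP4 present, palmitic acid raised Panx1 by 0.37 ± 0.05 on the log2 scale, or 1.30-fold (SE, n = 3 each, limma adjusted p = 0.00607). The arrays of slide 2 alone gave 0.41 ± 0.06 (adjusted p = 0.0239). Slide as a fixed block has the same estimate by construction (adjusted p = 0.00674), as has the fit without FABP4 array 1, so these are not separate checks. All 12 fits that left out 1 array kept the call, with adjusted p-values of 0.00674 to 0.0291. The call ended in a fit to only these 6 arrays (adjusted p = 0.0721) and without scaling between arrays (adjusted p = 0.19).

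Both agents together raised Panx1 by 0.35 ± 0.05 over control (log2, SE, n = 3 each, 1.28-fold, limma adjusted p = 0.00608), and all 12 fits without 1 array kept this call. These groups shared no slide: with slide as a fixed block the value was 0.47 ± 0.09 (adjusted p = 0.0559), and as a random block 0.40 ± 0.07 (adjusted p = 0.0334). The slide difference in the fixed block rests on the FABP4 group alone. Palmitic acid without FABP4 gave 0.19 ± 0.05 (adjusted p = 0.0561), which passed the threshold with FABP4 array 1 left out (adjusted p = 0.0324) and under quantile normalization (adjusted p = 0.0158), the percentile over detected probes (0.0164), the median over tested genes (0.024) and normexp background correction (0.0355). These groups shared no slide either. The difference did not pass with slide as a fixed block (0.30 ± 0.09, adjusted p = 0.156) or as a random block (0.24 ± 0.07, adjusted p = 0.163). Of the 12 fits without 1 array only 1 passed, and the adjusted p reached 0.176. FABP4 added to palmitic acid gave 0.16 ± 0.05, unadjusted p = 0.015 and adjusted p = 0.806, with higher values on 3 of 3 arrays. FABP4 alone gave -0.02, with a 95% interval of -0.14 to 0.10. The interaction was 0.18 ± 0.08 (adjusted p = 0.713), so the palmitic acid effects with and without FABP4 were not shown to differ. The tested genes with the most similar pattern over 12 arrays were Wdr31, Creld2 and Rsad2, each with a root mean square difference of 0.05 log2 units.

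Among 62 other tested genes of the pathway, palmitic acid without FABP4 raised 2 and lowered 1 (8.61% of all genes tested were called), palmitic acid with FABP4 present raised 2 and lowered 1 (3.81% of all genes), both agents together raised 3 and lowered 0 (7.52%), and FABP4 called 0 either way without or with palmitic acid, as did the interaction (limma, with 7 genes at an unadjusted p under 0.05 in each of these 3, beside 1273, 1034 and 1218 of all 17596 genes). Their median log2 fold change was -0.08 for palmitic acid alone, 0.02 with FABP4 present and -0.02 for both. In the same order, 16, 14 and 16 of the 62 were at an unadjusted p under 0.05, beside 4667, 3674 and 4419 of all 17596 genes. The 9 tested of 13 further sensors, among them NAIP and NLRP1 family genes, had 0 calls in limma, with 0 to 3 at an unadjusted p under 0.05 per comparison. The 16 tested of 18 licensing factors, ion channels and regulators, a list that holds Nek7, P2rx7 and the guanylate binding protein Gbp5, had 0 calls with 0 to 3 at that unadjusted p, and the 9 tested of 10 alpha-arrestins and glucose-sensing partners of Txnip had 0 calls with 0 to 1. All calls came from the remaining lists: executioners, cytokines and their receptors (13 tested of 17) and the priming pathway (15 tested of 15). Of the first, 11 to 13 genes per comparison were not called, and of the second 13 to 15. For palmitic acid alone their median log2 fold changes were -0.11 and -0.10, and with FABP4 present -0.05 and 0.06. Nlrp6, Nlrp10, Nlrp12 and Naip1 were too dim to be tested.

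Ninj1, the membrane protein that ruptures the plasma membrane after gasdermin pores form, rose in all 3 comparisons that add palmitic acid. It gave 18905, 18656 and 18548 units with palmitic acid and FABP4, 16919, 17977 and 18077 units with palmitic acid, 14409.9, 14746 and 15068 units with FABP4, and 14243, 14329 and 13861 units in control cells. The 6 palmitic acid arrays lay above the 6 others without overlap. The log2 change was 0.34 ± 0.04 with FABP4 present (SE, n = 3 each, limma adjusted p = 0.00276), 0.32 ± 0.04 without it (adjusted p = 0.00343) and 0.40 ± 0.04 with both against control (adjusted p = 0.00111). All 12 fits without 1 array kept each of these calls. On slide 2 alone the first of them was 0.33 ± 0.05 (adjusted p = 0.0385), and slide as a fixed block has the same estimate by construction (adjusted p = 0.00783). Against control the block gave 0.27 ± 0.07 without FABP4 (adjusted p = 0.13) and 0.35 ± 0.07 with both agents (adjusted p = 0.0689), and slide as a random block kept both calls (adjusted p = 0.0419 and 0.0169).

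Of the other calls of these lists, those of Il1a and Ly96 came with palmitic acid added to FABP4. Il1a, an alarmin cytokine, gave 2329, 2327 and 2363 units with palmitic acid and FABP4, against 3194, 3341 and 2842.5 units with FABP4, and fell by 0.41 ± 0.08 (log2, SE, n = 3 each, limma adjusted p = 0.022, or 0.0534 with slide as a fixed block). It gave 2721, 2282 and 2415 units with palmitic acid alone and 2593, 2860 and 2923 units in control cells. Against control, Il1a gave 0.16 ± 0.08 with FABP4 (adjusted p = 0.732), -0.18 ± 0.08 with palmitic acid (0.194) and -0.25 ± 0.08 with both (0.089). Ly96, which encodes MD-2, the partner of Toll-like receptor 4 in binding lipopolysaccharide, gave 1508, 1581 and 1681 units with palmitic acid and FABP4, against 1139, 1163 and 1223 units with FABP4, and rose by 0.44 ± 0.08 (adjusted p = 0.0124, or 0.0348 with the slide block). Ly96 gave 1410.4, 1203 and 1463 units with palmitic acid alone and 1384, 1326 and 1402 units in control cells, so the FABP4 arrays were also below the control arrays (-0.22 ± 0.08, adjusted p = 0.585), and palmitic acid alone gave -0.02 ± 0.08 (adjusted p = 0.909). In both genes the arrays with both agents and those with FABP4 alone did not overlap. On slide 2 alone the values were -0.40 ± 0.09 for Il1a (adjusted p = 0.0969) and 0.41 ± 0.09 for Ly96 (adjusted p = 0.0875). By construction the slide block has these same estimates. The Il1a call ended without FABP4 array 1 or 2 or without any 1 of the 3 arrays with both agents (adjusted p up to 0.0813), and the Ly96 call without FABP4 array 2 or without array 2 or 3 with both agents (up to 0.052).

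Ifnb1, the type I interferon made after Toll-like receptor signalling, rose by 0.44 ± 0.07 with palmitic acid alone (log2, SE, n = 3 each, limma adjusted p = 0.00506) and by 0.28 ± 0.07 with both agents (adjusted p = 0.0312). Nfkbia, the NF-kB inhibitor that NF-kB itself induces, fell by 0.27 ± 0.05 with palmitic acid alone (adjusted p = 0.0167), and Dfna5, the older name of the gasdermin E gene, rose by 0.26 ± 0.07 with both agents (adjusted p = 0.0419). With slide as a fixed block these 4 calls ended: Ifnb1 gave 0.53 ± 0.12 (adjusted p = 0.0813) and 0.37 ± 0.12 (0.156), Nfkbia -0.14 ± 0.09 (0.488) and Dfna5 0.34 ± 0.12 (0.195). Slide as a random block kept the first Ifnb1 call (adjusted p = 0.0354) and ended the other 3 (0.135, 0.201 and 0.173). Leaving out 1 array ended the second Ifnb1 call without control array 1 or 3 or any array with both agents (adjusted p up to 0.106) and the Nfkbia call without control array 1 or 3 or palmitic acid array 1 or 2 (up to 0.0644). The Dfna5 call held in 4 of 12 such fits, those without FABP4 array 1 or 2 or palmitic acid array 2 or 3 (up to 0.125 in the others), and the first Ifnb1 call in 12 of 12. Il1b, the main cytokine product of the complex, was named here for its role, but after its values were seen. It was not called: palmitic acid alone gave -0.18 ± 0.05 (adjusted p = 0.051) and palmitic acid with FABP4 present -0.12 ± 0.05 (adjusted p = 0.195).

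**Figure D5:**
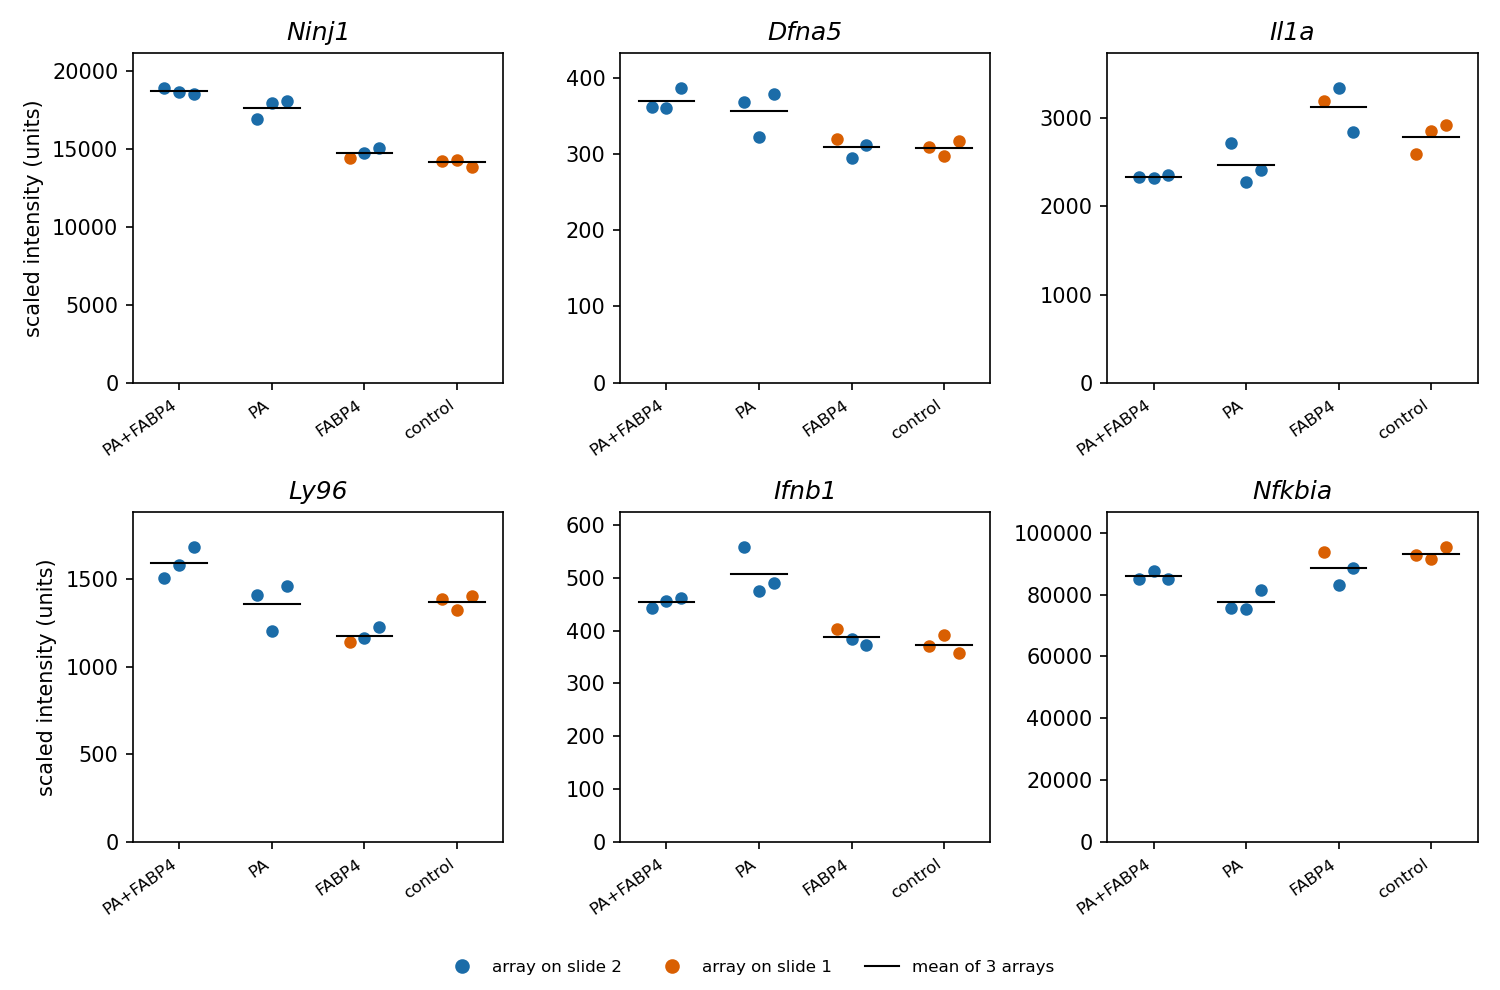
Scaled intensity (vertical axis, units, from 0) of the 6 other pathway genes called in at least 1 comparison, by group, with orange points on slide 1, blue points on slide 2 and bars at the means of 3 arrays. Ninj1 is higher on all 6 palmitic acid arrays than on the 6 others, and Ly96 is lower on the 3 FABP4 arrays than on the 3 with both agents.

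RefSeq promoters of GRCm38.p6 were matched for 9 of the 10 members, with 11 start sites, and 250 bases before each were searched on both strands. An NF-kB type motif (GGGA, any 4 bases, then CC), shown because NF-kB drives priming, occurred before Nlrp3 and Casp4 and in 17.6% of 32851 promoters, and neither gene was called. The matches are in capitals, with 15 bases on each side, at chr11:59541368-59541407 and chr9:5308742-5308781, both on the plus strand.
Nlrp3: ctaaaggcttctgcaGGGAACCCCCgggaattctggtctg
Casp4: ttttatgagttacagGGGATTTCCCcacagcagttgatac
The E-box CACGTG occurred, of the members, before Casp1 only, and in 6.02% of all promoters. The half-site AGGTCA (14% of all promoters) and an interferon type repeat (TTTC, any 2 bases, then TTTC, 2.98%) occurred before none of the 9 members. The Panx1 and Pycard promoters held none of these motifs in this window.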

How the data were processed

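RNA of RAW264.7 cells was read on 12 Agilent arrays in 1 colour (Cy3), per the labels. Per the file headers, Agilent Feature Extraction 10.7.3.1 gave each spot a background-subtracted processed intensity. This deposited intensity is linear and not normalized between arrays, and the values deposited for the whole series match it within 0.005. Further steps of the authors are not stated in the sources used. Precision is limited by the number of arrays, with a median SE of 0.084 on log2 fold changes.

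Control spots were left out, spots of a probe were averaged, and log2 intensity minus the array's 75th percentile over non-control spots was used. Tested were probes well above background throughout at least 1 group (23911 of 55681), and the brightest stood for its gene. The members' probe that stood for the gene is called the first probe. All 12 arrays were fitted with 4 group means by lmFit and eBayes of limma 3.58.1 (two-sided tests, R 4.3.3) with the packages data.table (1.17.8) and jsonlite (2.0.0), and p-values were adjusted by Benjamini-Hochberg over all 17596 genes, or over all tested probes for second probes. The code was tested on simulated data. Figures used matplotlib 3.10.9 in Python 3.11.15.

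The members and lists were chosen with earlier results of these data known. Named genes were all members, the pathway genes called in at least 1 comparison (at most 4 per list and comparison), and for called members the 3 most similar genes, by the smallest root mean square difference of centred log2 values among genes whose group means range at least 0.5 times as far. Il1b was named after its values were seen. Alternatives were other normalizations, background correction (normexp, offset 50), the deposited value table, other filters, a gene's mean probe, slide and replicate blocks, single slides, only the groups compared, trended robust moderation, leaving out each array and, added after seeing the data, no scaling between arrays.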

Additional observations from a re-analysis of the deposited data

How the results depend on the processing

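No member changed direction while called under any alternative run. For palmitic acid without FABP4 the 1 call became 2 under quantile normalization, under the median over tested genes and under normexp (Pycard and Panx1 each time), 0 with no filter on dim probes, with slide as a random block and in the fit to only the groups compared, and 3 without scaling between arrays (Gsdmd, Panx1 and Pycard), a fit chosen after seeing the data. The percentile over detected probes called Panx1 in place of Pycard, and slide as a fixed block called Txnip lower. Leaving out 1 array gave 0 to 3 calls, with 3 (Pycard, Panx1 and Aim2) without FABP4 array 1. For palmitic acid with FABP4 present the 1 call became 0 in the fit to only the groups compared and 0 without scaling, and leaving out 1 array gave 1 to 1. For FABP4 without palmitic acid the 0 calls became 1 (Txnip) with slide as a fixed block. For both agents against control the 1 call became 2 with only probes above background on all 12 arrays and with trended robust moderation (Panx1 and Pycard), slide as a fixed block called Txnip in place of Panx1, and leaving out 1 array gave 1 to 2. FABP4 with palmitic acid present and the interaction kept 0 members called in all alternatives run. The 4 arrays of slide 1, where the lone FABP4 array is assumed to vary like the controls, allowed a test of FABP4 alone and called 0 members. Slide 2 held no control arrays, and the interaction has no fit to only 2 groups.

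The labels do not say that a replicate number marks a shared culture, and same-numbered arrays deviated together little (correlations -0.08 to 0.17 over 18 pairs, 1 above 0.1). The replicate block left the member calls at 1, 1, 0, 0, 1 and 0 for palmitic acid without and with FABP4, FABP4 without and with palmitic acid, both agents and the interaction, and moved all genes called with FABP4 present to 408, against 670.

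Of all genes, the calls for palmitic acid alone (1515), with FABP4 present (670) and for both agents (1323) became 513, 185 and 435 with no filter, 138, 590 and 160 with slide as a fixed block, 191, 700 and 221 with it as a random block and 3055, 159 and 672 without scaling. With FABP4 present they were also 260 on slide 2, 94 in the fit to only the groups compared and 1138 with trended robust moderation. Leaving out 1 array gave 655 to 2716, 247 to 601 and 554 to 2241. For FABP4 alone the 3 calls became 103 with the fixed block and 59 without FABP4 array 1 (0 to 3 elsewhere), and for the interaction the 0 calls became 37 with the fixed block (0 to 5 elsewhere). With FABP4 present the split of higher and lower calls was 504 and 166, against 393 and 304 under quantile normalization, 409 and 412 under the detected percentile, 443 and 296 under the median and 67 and 92 without scaling. For both agents it was 947 and 376, against 846 and 535, 785 and 572, and 587 and 85 under the first, second and last of these. Without scaling the median of all genes moved to 0.17 for palmitic acid alone, 0.13 for FABP4 alone and -0.23 for the interaction.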
